A study of Mus musculus with 17 samples.

Results

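A set of 10 imprinted genes of growth control was followed in muscle RNA of aged mice: the noncoding RNAs Meg3, Rian, Mirg and H19, and the protein genes Dlk1, Cdkn1c, Peg3, Plagl1, Grb10 and Ndn. They are 10 of the 36172 rows of the deposited gene table, found by their symbol, with 1 row each. The set was chosen by the difference between males and females that Meg3 and Rian had shown in earlier results of these data. Levels by sex are therefore given below as a description, with no p-value for the members, while the comparison of vectors is tested.

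RNA came from the extensor digitorum longus (EDL), a shin muscle made mainly of fast fibres, of 17 mice. Of these, 10 animals had been given an empty vector (5 females and 5 males) and 7 a vector for Hand2 (4 females and 3 males), a transcription factor of sympathetic neurons. The series concerns whether keeping those neurons protects muscle in old age. Strain, the promoter in the vector, its dose and its route are not stated in the labels, and no untreated animals are among the samples. Ages were 22 months for empty-vector replicates 1, 2 and 10 and Hand2 replicates 1, 2, 3 and 4, and 23 months for the other 10 animals, so only 2 of 8 males and 5 of 9 females were 22 months old. Every group thus carried a vector and was old.

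Libraries held 19181208 to 30942818 estimated counts, with a median of 26091234. Levels are given as CPM, counts divided by the library's total after scaling by trimmed means. The fast-fibre gene Actn3 lay between 5380 and 8992 CPM and Pvalb, the calcium buffer of fast fibres, between 3558 and 5624 CPM in all 17 libraries; both are defining genes of fast muscle. Hand2 itself had a mean of 0.440 ± 0.253 CPM in the 10 empty-vector animals and of 6.50 ± 9.30 CPM in the 7 others (SD), and the highest empty-vector library (0.940 CPM) lay below the lowest Hand2 library (1.02 CPM).

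An imprinted gene is read from the copy of one parent, while the other copy is silenced by marks laid down in the germ line. Many such genes act on growth: copies expressed from the father tend to promote it and copies expressed from the mother to restrain it. In the Dlk1-Dio3 domain of chromosome 12 the father's copy gives the proteins Dlk1, Rtl1 and Dio3, and the mother's copy gives Meg3, Rian and Mirg, which lie one after another on the same strand and carry snoRNAs and microRNAs. On distal chromosome 7 the mother's copy of H19 lies beside Igf2, which the father's copy expresses, and H19 RNA stays abundant in skeletal muscle after birth. Several imprinted genes, among them Dlk1, H19, Cdkn1c, Peg3, Plagl1, Grb10 and Ndn, are known as a network that is high in growing tissues and falls after birth.

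In the mm10 coordinates of the table, Dlk1 lies at chr12:109452823-109463336, Meg3 at chr12:109540996-109571729, Rian at chr12:109603945-109661711 and Mirg at chr12:109734981-109749457, all on the plus strand. H19 lies at chr7:142575532-142578146 and Cdkn1c at chr7:143458339-143461050, both on the minus strand. Peg3 lies at chr7:6705960-6730419 on the minus strand and Ndn at chr7:62348277-62349927 on the plus strand. Plagl1 lies at chr10:13090788-13131695 on the plus strand and Grb10 at chr11:11930499-12037420 on the minus strand. The table types Meg3, Rian, Mirg and H19 as noncoding (miscRNA) and the other 6 as protein-coding.

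Promoters are shown for Meg3 and Rian, whose levels varied together. Promoters of Peg3 and Plagl1 are added, since Peg3 shares TGACGTCA with Meg3 and Plagl1 shares CATCTG with Rian. Each holds 250 bases before the start and 50 after it, 5′ to 3′ on the gene's strand, from RefSeq on GRCm38.p6. They cover chr12:109540746-109541045 for Meg3, chr12:109603695-109603994 for Rian, chr7:6730370-6730669 for Peg3 (minus strand) and chr10:13090582-13090881 for Plagl1. Capitals mark the motifs that were searched on both strands: the cAMP response element TGACGTCA, its core TGACG, the E-box CANNTG and CATCTG.
Meg3 promoter: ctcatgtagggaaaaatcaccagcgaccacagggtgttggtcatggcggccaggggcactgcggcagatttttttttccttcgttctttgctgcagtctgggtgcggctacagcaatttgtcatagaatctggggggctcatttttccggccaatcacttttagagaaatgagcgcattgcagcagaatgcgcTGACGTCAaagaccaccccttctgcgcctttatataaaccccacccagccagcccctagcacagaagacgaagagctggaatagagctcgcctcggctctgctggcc
Rian promoter: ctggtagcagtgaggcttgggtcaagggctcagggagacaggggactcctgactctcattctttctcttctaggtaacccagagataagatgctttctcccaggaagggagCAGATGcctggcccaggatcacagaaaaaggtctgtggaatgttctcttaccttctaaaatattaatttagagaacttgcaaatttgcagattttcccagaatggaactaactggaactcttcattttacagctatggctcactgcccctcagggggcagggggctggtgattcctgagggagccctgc
Peg3 promoter: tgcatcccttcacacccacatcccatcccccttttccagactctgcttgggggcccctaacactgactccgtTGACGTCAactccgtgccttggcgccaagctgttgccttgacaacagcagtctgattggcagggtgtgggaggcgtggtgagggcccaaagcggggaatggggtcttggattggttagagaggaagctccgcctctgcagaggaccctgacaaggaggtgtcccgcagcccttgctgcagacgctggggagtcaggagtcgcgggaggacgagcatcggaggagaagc
Plagl1 promoter: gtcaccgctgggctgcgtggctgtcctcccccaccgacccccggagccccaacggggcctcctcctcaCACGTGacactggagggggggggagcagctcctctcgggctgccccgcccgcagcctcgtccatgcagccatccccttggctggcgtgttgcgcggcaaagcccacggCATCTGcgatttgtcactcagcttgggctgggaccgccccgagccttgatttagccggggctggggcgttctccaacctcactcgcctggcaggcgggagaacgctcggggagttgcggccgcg

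The full element TGACGTCA starts 57 bases before the start of Meg3 and 178 bases before that of Peg3, and 1.79% of all 32841 promoters in the RefSeq table hold it. TGACG, which lies inside TGACGTCA, is also in promoters of Dlk1 and Grb10 and in 20.8% of all promoters. CATCTG, a form of CANNTG bound by proteins of the Hand type, is at 139 bases before the start of Rian (on the opposite strand, read as CAGATG) and 74 before that of Plagl1, against 17.2% of all promoters. CANNTG was found in promoters of 5 members and in 72.3% of all. Meg3 and Grb10 have 2 promoter entries each. The second of Meg3, chr12:109545148-109545447, is not shown: it holds the CANNTG of Meg3 and no TGACGTCA. The promoter of Rian holds 0 CG pairs, that of Meg3 shown above 13 and the second of Meg3 1, with a median of 7 over all promoters. Promoter entries were matched for 8 of the 10 members, the others being H19 and Cdkn1c. These matches describe the letters and were set against no binding data.

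MicroRNAs that the noncoding members carry are shown for Meg3 (without miR-770-3p), for H19 and for the 1 pair of Mirg that shares a seed. Sequences are mature RNAs from RefSeq, 5′ to 3′, with bases 2 to 8, the seed that pairs with target RNAs, in capitals.
miR-1906 (in Meg3): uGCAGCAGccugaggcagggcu
miR-770-5p (in Meg3): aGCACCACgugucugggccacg
miR-675-5p (in H19): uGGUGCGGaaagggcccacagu
miR-675-3p (in H19): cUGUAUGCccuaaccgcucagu
miR-453 (in Mirg): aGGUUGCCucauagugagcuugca
miR-496a-5p (in Mirg): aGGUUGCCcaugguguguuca

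Within the span of each host and on its strand, RefSeq places 2 hairpins in Meg3, 3 in Rian, 10 in Mirg and 1 in H19. The 19 mature RNAs of Mirg have 18 different seeds, since miR-453 and miR-496a-5p share GGUUGCC. MicroRNAs themselves are too short for this kind of library, so the levels below are those of the long host RNAs.

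Per length of exon, H19 was the most abundant member at 182 ± 122 CPM per kb (SD, n = 17), followed by Cdkn1c at 16.6 ± 3.2 and Grb10 at 10.6 ± 1.7 CPM per kb. Below these the order depended on sex. In females Meg3 (4.18 ± 0.65) and Peg3 (3.34 ± 0.99 CPM per kb) came next with overlapping spreads, then Rian (2.0 ± 0.39), Ndn (1.58 ± 0.33) and Mirg (0.903 ± 0.268 CPM per kb). In males Peg3 (2.58 ± 0.61) came before Ndn (1.75 ± 0.49) and Meg3 (1.49 ± 0.23), followed by Rian (0.527 ± 0.137) and Mirg (0.378 ± 0.154 CPM per kb). Plagl1 (0.373 ± 0.150) and Dlk1 (0.340 ± 0.120 CPM per kb, SD, n = 17) were lowest over all animals, with overlapping spreads. Exon lengths are from GENCODE transcripts with a RefSeq match, or all transcripts for Rian, and may differ from those the authors counted over. All 10 members passed the filter on low counts, although Mirg rested on as few as 4.69 estimated counts in a library, Dlk1 on 15 and Plagl1 on 20.7.

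**Figure D1:**
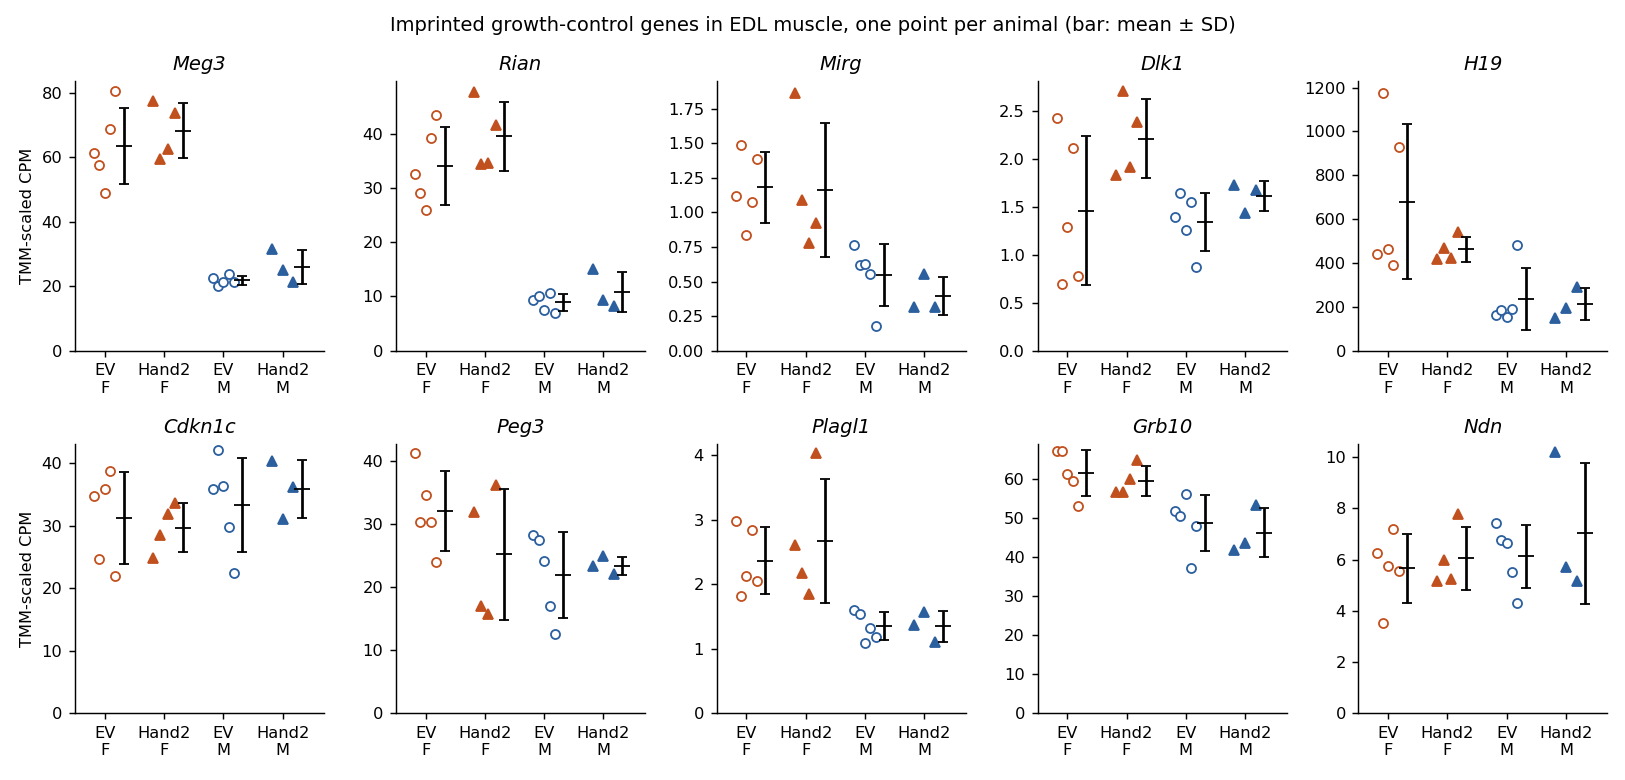
Level of each member (TMM-scaled CPM, axes from 0) in every animal, by vector (EV, empty vector; Hand2) and sex (F, M), with the mean ± SD of each group beside the points. All males of Meg3, Rian, Mirg and Plagl1 lie below all females, and H19 has 2 high empty-vector females and 1 high empty-vector male.

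Levels of the noncoding RNAs of the Dlk1-Dio3 domain are given first, by sex and vector, as a description. Meg3, which binds chromatin-modifying complexes and is known as a restraint on growth, lay in the empty-vector females at 61.3, 57.7, 49.0, 68.7 and 80.6 CPM and in the Hand2 females at 77.3, 59.5, 62.4 and 73.6 CPM. It lay in the empty-vector males at 22.7, 20.1, 21.2, 23.9 and 21.3 CPM and in the Hand2 males at 31.5, 24.9 and 21.2 CPM. The highest male was Hand2 replicate 4 (31.5 CPM) and the lowest female empty-vector replicate 3 (49.0 CPM), so the sexes did not overlap. The mean was 65.5 ± 10.2 CPM in 9 females and 23.4 ± 3.7 CPM in 8 males (SD), a log2 difference of -1.48 ± 0.10 (SE, male minus female) or 2.79-fold.

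Rian, the host of snoRNAs and microRNAs downstream of Meg3, showed the same order with a wider gap. Empty-vector females held 32.6, 29.0, 26.0, 39.1 and 43.5 CPM and Hand2 females 47.6, 34.4, 34.5 and 41.5 CPM. Empty-vector males held 9.36, 10.1, 7.44, 10.6 and 6.97 CPM and Hand2 males 15.0, 9.37 and 8.17 CPM. The highest male was again Hand2 replicate 4, and the lowest female again empty-vector replicate 3. Means were 36.5 ± 7.0 CPM in females and 9.62 ± 2.50 CPM in males (SD), a log2 difference of -1.91 ± 0.14 (SE) or 3.75-fold.

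Mirg, the microRNA host farther along the domain, was scarce. Females ran from 0.778 to 1.87 CPM with a median of 1.09 and males from 0.175 to 0.765 CPM with a median of 0.557. The lowest female (0.778 CPM) and the highest male (0.765 CPM) nearly met. The log2 difference was -1.27 ± 0.27 (SE).

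Dlk1, a membrane protein of the Notch ligand family that holds back differentiation of fat and muscle precursors, did not follow its noncoding neighbours. Females ran from 0.697 to 2.71 CPM with a median of 1.91, and males from 0.876 to 1.73 CPM with a median of 1.49. Its sexes overlapped over the whole male range, with a log2 difference of -0.26 ± 0.23 (SE). Among the empty-vector animals, replicate 2 (0.697 CPM), replicate 5 (0.781 CPM) and male replicate 10 (0.876 CPM) were the 3 lowest of all 17.

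From Dlk1 to Dio3 the table has 77 rows, of which 51 were at 0 in all libraries and 6 had counts enough to test. Besides the 4 members these were Dio3, the deiodinase that inactivates thyroid hormone, and its antisense neighbour Dio3os. Dio3 averaged 0.343 ± 0.285 CPM in females and 0.342 ± 0.241 CPM in males (SD), and the sex effect was 0.06 ± 0.52 (SE, adjusted p = 0.967 in edgeR's quasi-likelihood test). For Dio3os it was 0.17 ± 0.39 (adjusted p = 0.841). Of 59 microRNA rows 43 were at 0 and 1 had a total of 10 or more: Mir1906-1, inside Meg3, with 4.5 to 12.2 estimated counts in females and 1 to 3.5 in males. AF357359, a snoRNA row inside Rian, held 1.47 to 7.23 estimated counts in females and 0.620 to 1.31 in males. The labels do not state whether counting used strand, so reads of a host and of a row inside it, or of Rtl1 and the RNAs on its opposite strand, cannot be told apart.

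**Figure D2:**
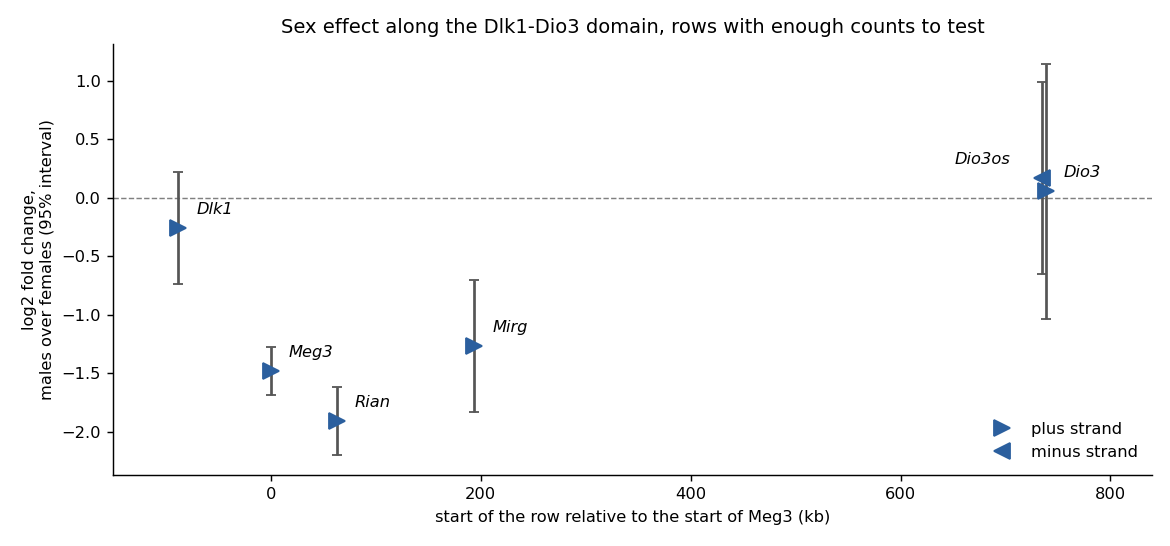
Sex effect (log2, males over females, with 95% intervals) of the 6 rows tested between Dlk1 and Dio3, against the distance of the row's start from that of Meg3 in kb; arrows point along the strand. Meg3, Rian and Mirg lie at -1.48, -1.91 and -1.27, while the intervals of Dlk1, Dio3os and Dio3 include 0.

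H19, the most abundant member, lay in the empty-vector females at 441, 1176, 463, 391 and 928 CPM and in the Hand2 females at 419, 466, 421 and 543 CPM. Empty-vector males held 164, 187, 152, 190 and 484 CPM and Hand2 males 149, 194 and 293 CPM. The sexes overlapped through empty-vector replicate 10 alone, whose 484 CPM exceeded 6 of the 9 females. Means were 583 ± 276 CPM in females and 227 ± 113 CPM in males (SD), a log2 difference of -1.36 ± 0.29 (SE) that became -1.60 without replicate 10 and -1.19 without replicate 2. The row of Mir675, which lies inside H19, was at 0 in all libraries.

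Among the growth restraints, Cdkn1c, an inhibitor of cyclin-dependent kinases, averaged 30.5 ± 5.8 CPM in females and 34.3 ± 6.3 CPM in males (SD), with a log2 difference of 0.17 ± 0.13 (SE). Its lowest animals were empty-vector replicates 5 (22.0 CPM), 10 (22.5 CPM) and 2 (24.7 CPM), the same 3 that were lowest for Dlk1. Grb10, an adaptor that dampens insulin and IGF receptors, averaged 60.6 ± 4.9 CPM in females and 47.8 ± 6.5 CPM in males, a log2 difference of -0.35 ± 0.07. The sexes of Grb10 overlapped between the lowest female at 53.0 CPM and the highest male at 56.2 CPM.

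Plagl1, a zinc-finger factor that activates other imprinted genes, ran from 1.81 to 4.03 CPM in females (median 2.18) and from 1.10 to 1.60 CPM in males (median 1.35). Its sexes did not overlap, and the log2 difference was -0.87 ± 0.17 (SE). Peg3, a zinc-finger protein with roles in cell death and growth, averaged 29.0 ± 8.6 CPM in females and 22.5 ± 5.3 CPM in males (SD) and overlapped widely (-0.37 ± 0.20). Ndn, a MAGE-family protein that promotes differentiation of neurons and muscle cells, averaged 5.83 ± 1.23 and 6.46 ± 1.80 CPM (0.16 ± 0.16), with its highest value, 10.2 CPM, in the male Hand2 replicate 4.

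By the threshold used across the table (adjusted p under 0.05), 6 of the 10 members were lower in males and 0 higher, beside 5.63% of all 13965 genes tested in either direction, 2.72% lower and 2.91% higher. The 786 genes behind that share (406 higher and 380 lower in males, or 514 and 270 with upper-quartile scaling) became 476 without empty-vector replicate 7. For 4 of 10 (Meg3, Rian, Mirg and Plagl1) every male lay below every female, beside 0.351% of all genes, and for 0 of 10 every male lay above every female, beside 0.494%. The median log2 sex effect was -0.62 over the members and 0.001 over all genes. Because the sex difference led to the choice of the set, these counts only describe it, and nothing is read from them.

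Sex and age were unevenly mixed, so values within each age are given. In 22-month animals alone the log2 sex effect was -1.26 for Meg3, -1.71 for Rian, -2.36 for Mirg, -1.14 for H19, -0.84 for Plagl1 and -0.48 for Grb10. In 23-month animals alone it was -1.61 for Meg3, -2.03 for Rian, -0.84 for Mirg, -1.61 for H19, -0.99 for Plagl1 and -0.29 for Grb10. These 6 are the members past the threshold over all animals, so their values in parts of the same animals only describe them. The males of 22 months were empty-vector replicate 10 and Hand2 replicate 4 alone.

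Markers of some cell and fibre types also differed between the sexes, although the summed levels overlapped. Of 10 slow-fibre genes 8 were lower in males, with a median log2 effect of -2.30, none was at 0, and their summed level was 551 to 2060 CPM in females and 307 to 581 CPM in males. Of 6 adipocyte genes 4 were lower in males (median -1.25), none at 0, with sums of 175 to 328 CPM in females and 181 to 323 CPM in males. Fabp4, a fatty acid carrier also made by endothelial cells, gave 72.0% to 95.7% of that sum and had an effect of 0.13, and the other 5 summed to 22.4 to 67.6 CPM in females and 9.0 to 30.3 CPM in males. In smooth muscle and pericyte markers 3 of 7 tested were higher in males. Of 10 satellite cell markers 1 was lower, and of the markers tested for fibro-adipogenic progenitors (12), endothelium (10), macrophages (9), Schwann cells (8) and fast fibres (12), 0 passed. Meg3 had r = 0.06 with the slow-fibre sum in 9 females (rho -0.02, exact permutation p = 0.872, adjusted p = 0.874) and 0.19 in 8 males (rho 0.57, exact permutation p = 0.667, adjusted p = 0.833). Without the 2 animals farthest in that sum these became 0.24 and 0.94, and for Rian 0.16 and 0.92. The part of fibre type or fat in the members' sex differences was not tested, and in bulk muscle fewer cells of a type and less RNA per cell cannot be told apart.

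The comparison of vectors asks whether the Hand2 vector changed the members with sex taken into account. None of the 10 passed: 0 of 10, beside 0% of all 13965 genes, by edgeR's quasi-likelihood test with Benjamini-Hochberg adjustment. Hand2 itself was thus not called either, although its means were 0.440 and 6.50 CPM and its groups did not overlap. The lack of a call therefore does not show that a member was unchanged. At an unadjusted p under 0.05 there were 0 members and 706 of the 13965 genes. A share of about 0.05 passes that limit when nothing differs, so the 706 are no calls. DESeq2 called 1 gene and limma-voom 0, none of them a member. Adjusted p ran from 0.921 to 0.996 over the members. Their median effect was 0.05 on the log2 scale, against -0.004 over all genes, with 6 members above 0 and 4 below.

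In the Dlk1-Dio3 domain, Dlk1 had means of 1.40 ± 0.56 CPM in 10 empty-vector and 1.95 ± 0.44 CPM in 7 Hand2 animals (SD), giving 0.45 ± 0.23 on the log2 scale (SE, 95% interval -0.03 to 0.93). Its Hand2 animals, from 1.44 to 2.71 CPM, overlapped the empty-vector range of 0.697 to 2.43 CPM. Meg3 showed 0.17 ± 0.10 (-0.03 to 0.37) and Rian 0.25 ± 0.13 (-0.03 to 0.53), with both intervals reaching below 0. Without Hand2 replicate 4 they were 0.095 and 0.13. The effect of Rian was 0.53 in 22-month animals alone and 0.03 in 23-month animals alone. For Mirg the effect was -0.18 ± 0.27 (-0.74 to 0.38). H19 averaged 458 ± 344 CPM against 355 ± 146 CPM (-0.37 ± 0.29), and the value was -0.18 without empty-vector replicate 10. The effect of H19 was -1.14 in 22-month animals alone and 0.28 in 23-month animals alone, and a difference by age was not tested. The 22-month empty-vector animals were replicates 1, 2 and 10, at 441, 1176 and 484 CPM.

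The proteins outside that domain had smaller effects. Cdkn1c was at 32.3 ± 7.1 CPM with the empty vector and 32.3 ± 5.1 CPM with Hand2 (0.01 ± 0.13, 95% interval -0.27 to 0.29). Grb10 had the narrowest interval, -0.22 to 0.10 around -0.06. The effects of Peg3 (-0.15 ± 0.20), Plagl1 (0.09 ± 0.17) and Ndn (0.14 ± 0.16) were all smaller than their SE, and that of Peg3 was 0.08 in 23-month animals alone.

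**Figure D3:**
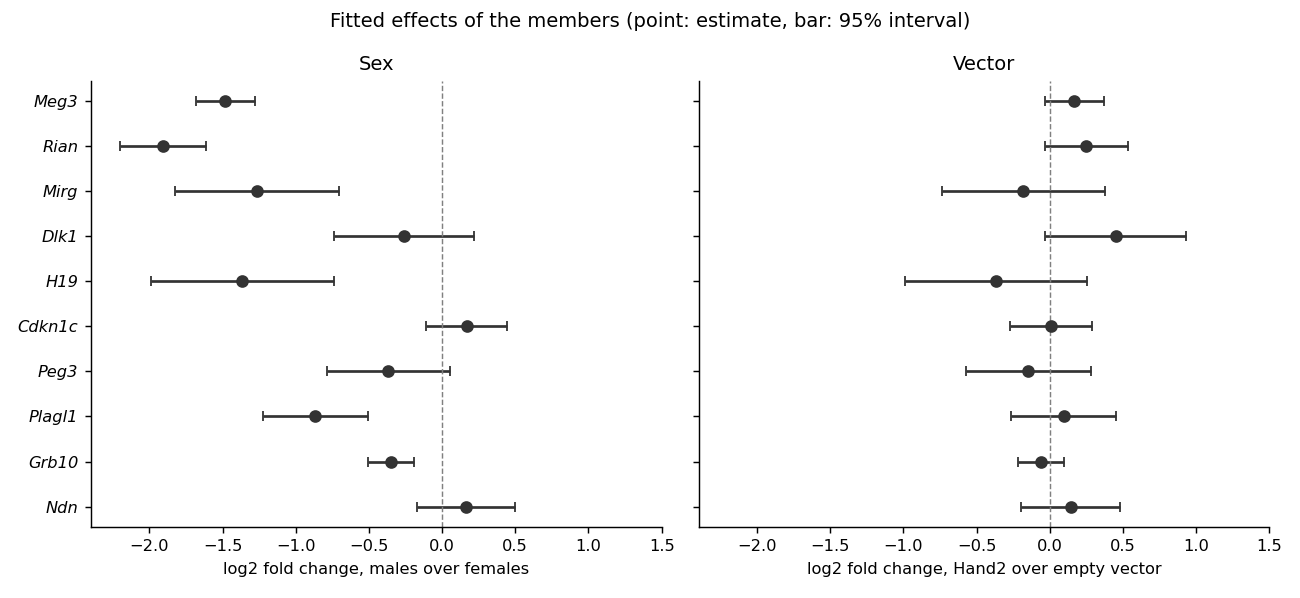
Fitted log2 effect of sex (left, males over females) and vector (right, Hand2 over empty vector) for each member; points are estimates and bars 95% intervals. All 10 vector intervals include 0; the sex panel is a description.

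Within females 0 of 10 members passed for the vector, beside 0% of genes (824 genes at an unadjusted p under 0.05), and within males 0 of 10, beside 0% (396 genes). DESeq2 called 7 genes in females and 1 in males. The female effect was largest for Dlk1 (0.59 ± 0.31, adjusted p = 0.853) and lowest for H19 (-0.56 ± 0.40, adjusted p = 0.91), and the male effect highest for Rian (0.29 ± 0.21) and lowest for Mirg (-0.47 ± 0.44, both adjusted p = 1). The vector effect did not differ between sexes past the threshold for any member (interaction, adjusted p = 0.9996 for each, 0 of 10 beside 0% of genes), with values from -0.46 ± 0.56 for Mirg to 0.45 ± 0.40 for Peg3. For that difference 474 genes had an unadjusted p under 0.05 and DESeq2 called 0. Here too, genes counted at an unadjusted p are no calls.

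The members were next compared animal by animal, within each sex, over 45 pairs and 90 correlations in all. Meg3 and Rian were the 1 pair past the threshold: r = 0.97 and rho = 0.97 in 9 females (exact permutation p = 5.24e-05, adjusted p = 0.00471, and 0.0149 for rho), while without the 2 females farthest from the median of Meg3 r was 0.97 over 7 animals (exact permutation p = 0.000595) and the adjusted p was 0.0536, so the pair no longer passed. In 8 males r was 0.82 (rho 0.52, exact permutation p = 0.0216, adjusted p = 0.203) and 0.41 without the 2 farthest animals, so there it rests on those animals, Hand2 replicate 4 among them. Taken as deviations from the 4 vector-by-sex means over 17 animals, r was 0.87, and each of the 2 genes was the one most like the other among all genes tested, given as a description.

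Mirg, on the same strand, was less alike: its deviations had r = 0.27 with Meg3 and 0.39 with Rian, on few counts. Dlk1 had r = -0.08 with Meg3 and 0.17 with Rian. Beside Rian, the genes most like Meg3 were Ets2 (0.81) and Tstd2 (0.79), and beside Meg3 those most like Rian were Ash1l and Smad5 (both 0.81).

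Levels of H19 ran opposite in sign to those of some other members. In the empty-vector group, replicates 2, 5 and 10 held high H19 for their sex (1176, 928 and 484 CPM) and the 3 lowest levels of Dlk1 and Cdkn1c. H19 and Cdkn1c had r = -0.68 in females (rho -0.58, exact permutation p = 0.0418) and r = -0.75 in males (rho -0.67, exact permutation p = 0.0423), both with an adjusted p = 0.238. Without the 2 animals farthest in H19 these became -0.01 and -0.50, and without the 2 farthest in Cdkn1c -0.01 and -0.22, so the female value rests on replicates 2 and 5. H19 and Dlk1 had r = -0.85 in females (rho -0.35, exact permutation p = 0.0158, adjusted p = 0.203) and 0.19 without those 2 animals. H19 and Ndn in males had r = -0.81 and rho = -0.90 (exact permutation p = 0.0159, adjusted p = 0.203), and -0.78 without the 2 farthest in H19. In females they had r = -0.63 (rho -0.18, exact permutation p = 0.0906, adjusted p = 0.334), which turned to 0.43 without the 2 farthest in H19. None of these passed the adjustment. As deviations over 17 animals, H19 had r = -0.77 with Cdkn1c, -0.73 with Dlk1 and -0.72 with Ndn. Ranked from most to least like H19 among the 13965 genes tested, these were at 13772, 13658 and 13636. The lowest r of any gene with H19 was -0.92, so such opposition was not particular to the members.

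**Figure D4:**
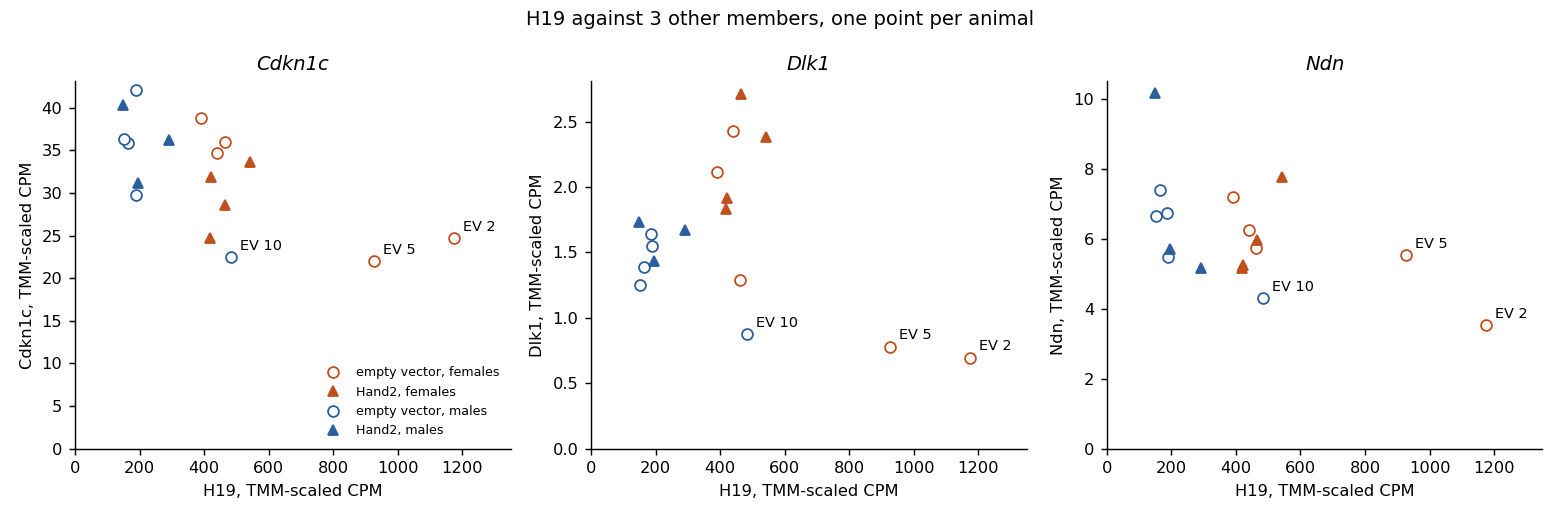
H19 against Cdkn1c, Dlk1 and Ndn (all TMM-scaled CPM, axes from 0), one point per animal; circles are empty vector and triangles Hand2, orange females and blue males. Empty-vector (EV) replicates 2, 5 and 10, labelled, hold high H19 for their sex and low Cdkn1c and Dlk1.

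Summed adipocyte markers were 328 CPM in replicate 2 and 323 CPM in replicate 10, the 2 highest of 17, while the 241 CPM of replicate 5 lay among the other animals. Without Fabp4 the sums were 49.1, 16.2 and 67.6 CPM in replicates 2, 10 and 5. Replicate 10 was thus high in Fabp4 and not in the other 5 markers, while replicate 5 was the highest of 17 in those. H19 had r = 0.68 with the full sum, Fabp4 included, in females (rho 0.60, exact permutation p = 0.0437). In males r was 0.74 (rho 0.38, exact permutation p = 0.0472). Each had an adjusted p = 0.276 over 40 relations, of which 0 passed. Without the 2 animals farthest in H19 they became -0.04 and -0.17. The part of fat in the level of H19 was not tested.

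Of the 15 pairs among the 6 protein genes, 11 had a positive and 1 a negative r in both sexes, and 0 passed the adjustment (5 of their 30 correlations had an exact permutation p under 0.05). Over all 45 pairs, 22 were positive and 8 negative in both sexes. The share over pairs of all genes was not computed, so these counts only describe the members. Deviations of Cdkn1c had r = 0.76 with Dlk1 and 0.70 with Ndn, and those of Peg3 0.68 with Plagl1, over 17 animals and as a description. Among all genes tested, Dlk1 ranked 159 and Ndn 308 in likeness to Cdkn1c, and Plagl1 ranked 266 in likeness to Peg3. In males Cdkn1c and Peg3 had r = 0.87 (rho 0.52, exact permutation p = 0.0112, adjusted p = 0.203), and 0.13 without the 2 farthest. Deviations of Grb10 over 17 animals had r = -0.52 with Meg3 and -0.56 with Rian, and neither pair passed the adjustment within a sex.

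**Figure D5:**
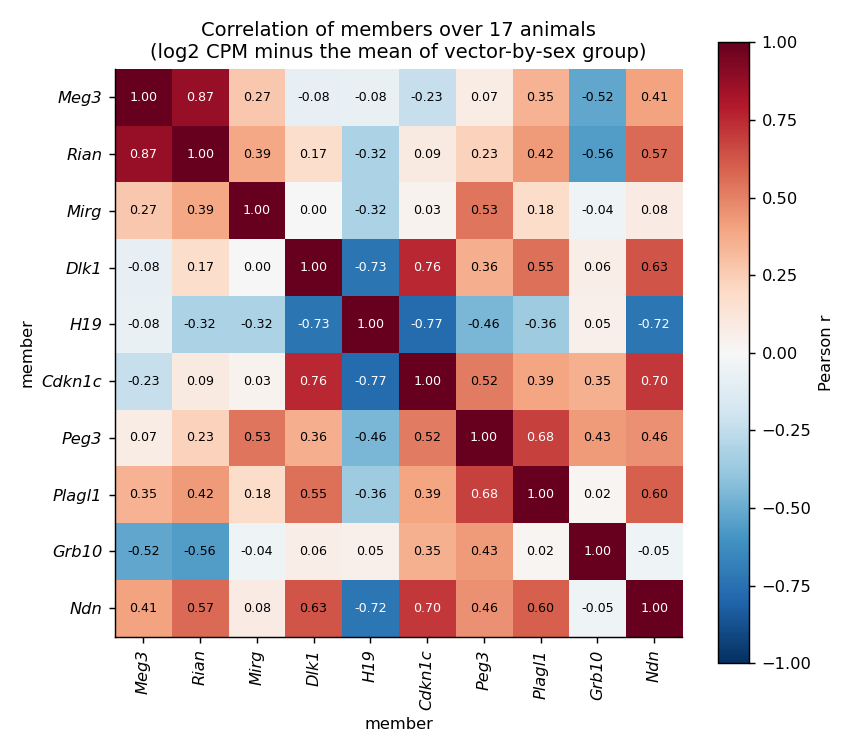
Pearson r between members over 17 animals, after the mean of each vector-by-sex group was taken from log2 CPM; red is positive and blue negative. Meg3 and Rian are at 0.87, and H19 is at -0.77, -0.73 and -0.72 with Cdkn1c, Dlk1 and Ndn.

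For the members other than Meg3 and Rian, the 3 genes with the closest pattern, by r of deviations over 17 animals, were no members. They are the highest of 13965 genes, so a high r is partly given by that choice. For H19 these were Decr1, an enzyme of mitochondrial fat oxidation (0.94), Apoa1bp (0.94) and Gadd45gip1 (0.93). For Cdkn1c they were Aff3, Npcd and the matrix proteoglycan gene Ogn (0.91, 0.90 and 0.90), and for Dlk1 Antxr1, a collagen-binding receptor (0.90), Cercam (0.89) and the matrix gene Chad (0.89). Peg3 was closest to Cdon, a cell-surface protein of myoblast differentiation (0.89), Kdelc2 (0.88) and Cdc25b (0.88), and Plagl1 to the thyroid hormone receptor gene Thra (0.89), Shisa2 (0.86) and Desi2 (0.85). Ndn was closest to Enpp2 (0.88), Nova1 (0.87) and Fzd1 (0.87), and Grb10 to 4930506M07Rik (0.87), Hoxa11as (0.83) and Il4i1 (0.82). Mirg was closest to 4933426M11Rik (0.88), Peg12, an imprinted gene of the Ndn domain at 0.304 CPM (0.85), and Wdfy3 (0.83).

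Neighbours on the chromosome were compared with the members within 500 kb. Of 15 rows tested around H19 that are no members, 1 passed for sex: Igf2, the growth factor gene beside it. Igf2 averaged 34.9 ± 5.7 CPM in females and 27.4 ± 2.8 CPM in males (SD), an effect of -0.35 ± 0.08 (SE, adjusted p = 0.0221 in edgeR), and both genes were thus lower in males. Around Cdkn1c 0 of 17 passed, around Peg3 0 of 11, around Plagl1 0 of 9 and around Grb10 0 of 6. Around Ndn 1 of 3 passed, A330076H08Rik, at 0.471 ± 0.107 CPM in females and 0.172 ± 0.115 CPM in males (-1.47 ± 0.38, adjusted p = 0.0306). Next to Meg3 the 1 row tested that is no member, Begain, had -0.50 ± 0.39 (adjusted p = 0.488). No neighbour passed for the vector.

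Other imprinted genes and genes of these domains, 74 tested of 92 listed, included 2 lower in males and 0 higher, a share like the 2.72% of all genes lower in males, with a median effect of 0.001. They were Igf2 and Cdh15, the cadherin of muscle precursor cells (-0.37 ± 0.08, adjusted p = 0.00867). Cdh15 is also the 1 satellite cell marker counted above as lower, and the median effect of those 10 markers was 0.17. For the vector 0 of the 74 genes passed and 4 had an unadjusted p under 0.05, a limit that some genes pass when nothing differs. Of 23 tested partners of the members' proteins in growth pathways, Traf2, a signalling adaptor, was higher in males (0.41 ± 0.08, adjusted p = 0.00492) and Siah1a, a ubiquitin ligase, lower (-0.80 ± 0.21, adjusted p = 0.0336), and 0 passed for the vector.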

How the data were processed

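EDL muscle RNA of 17 animals was made into TruSeq libraries, per the labels' protocols, and mapped to mm10, per the submitters' processing notes, with an aligner and counter not given in the sources used here. Per the deposited table, the authors' values are estimated counts per gene, unscaled for depth, and normalized log2 values, which served as an alternative. Estimated counts were rounded. The 13965 genes kept by filterByExpr (minimum count 10; edgeR 4.0.16, R 4.3.3) were TMM-scaled and tested by robust quasi-likelihood F tests. One model held vector and sex, another the 4 groups of vector and sex. Adjustment was by Benjamini-Hochberg over all genes, at 0.05. Correlations used log2 CPM (prior count 2) with two-sided exact permutation p. The procedure was tested on simulated data. Alternatives included DESeq2 1.42.0 and limma 3.58.1.

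The members and lists were chosen with earlier results of these data known. The naming rule took all members, list genes past 0.05 for sex or with the smallest p for the vector, neighbours within 500 kb past 0.05, and the 3 genes most like each member. Begain was named in addition. Replicate numbers follow accession order, and whether the numbers in the sample titles pair animals is not stated in the labels. Library totals of 19181208 to 30942818 leave few counts for Mirg, Dlk1 and Plagl1.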

Additional observations from a re-analysis of the deposited data

Results flagged for a closer look

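H19 in empty-vector replicate 10, a male of 22 months, was 484 CPM, far from the other 4 empty-vector males: the next held 190 CPM and the lowest 152 CPM. The gap to the next animal was 0.885 of the range of that group, above the limit of 0.71 for 5 animals. Such a limit is passed by chance in about 1 in 20 groups, and 30 groups of a member, a vector and a sex were looked at, of which 1 passed. The same library held 323 CPM of summed adipocyte markers and 581 CPM of summed slow-fibre genes, the highest of the 8 males for both. Fabp4 made up 306 CPM of the adipocyte sum and the other 5 markers 16.2 CPM, within the range of the other males; their part in its H19 level was not tested.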

How the results depend on the processing

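The sex effect, as a description, ran from -1.61 to -1.26 for Meg3 and from -2.03 to -1.71 for Rian over all settings. No member passed for the vector in any setting. Genes called for sex numbered 786, and 24 in 22-month animals alone, 413 in 23-month animals alone, 291 without empty-vector replicates 3, 4 and 5 together, 1271 with DESeq2, and 476 to 954 when 1 animal was left out. Genes called for the vector numbered 0, and 1 with DESeq2 and 0 to 1 with an animal left out; in females 7 and 0 to 1, in males 1 and 0 to 2, and for the interaction 0 to 0. The 1 correlation past the threshold became 0 without the 2 farthest animals of each pair. The sign changes below were all of effects that passed no threshold, and their cause was not tested. In 22-month animals alone the vector effect was 0.082 for Mirg and -0.042 for Plagl1. In 23-month animals alone it was 0.28 for H19, -0.040 for Cdkn1c, 0.078 for Peg3, 0.051 for Grb10 and -0.040 for Ndn, and the sex effect of Ndn was -0.073. With limma-voom the vector effect was -0.043 for Cdkn1c, and in females 0.14 for Mirg and -0.0016 for Ndn. In females Mirg was 0.0045 with upper-quartile scaling, 0.028 with library size alone and 0.049 with an age term. In males Plagl1 was 0.00040 with relative log expression scaling, 0.013 with upper-quartile scaling, 0.0056 with a stricter filter, 0.041 with an age term, 0.047 with limma-voom and 0.00085 with DESeq2. The male minus female vector effect without empty-vector replicates 3, 4 and 5 was -0.061 for Rian, 0.10 for Grb10 and -0.079 for Ndn, and with limma-voom -0.025 for Rian. With 1 animal left out, vector effects crossed 0 for Cdkn1c (-0.044 to 0.060), Plagl1 (-0.052 to 0.17) and Ndn (-0.0098 to 0.20). In females they did so for Mirg (-0.34 to 0.15), Cdkn1c (-0.18 to 0.016), Plagl1 (-0.10 to 0.30) and Ndn (-0.052 to 0.19). In males they did so for Rian (-0.018 to 0.46), H19 (-0.46 to 0.29), Cdkn1c (-0.0062 to 0.20), Peg3 (-0.051 to 0.21), Plagl1 (-0.12 to 0.12) and Ndn (-0.17 to 0.38). The male minus female difference crossed 0 for Meg3 (-0.024 to 0.27), Rian (-0.23 to 0.24), Plagl1 (-0.30 to 0.10), Grb10 (-0.14 to 0.043) and Ndn (-0.26 to 0.29). Mirg gave no value under the stricter filter. Replicate numbers here follow accession order, but the sample titles carry numbers of their own, of which 2 occur with both vectors. Whether these numbers pair animals is not stated in the labels, and correlations of deviations cannot decide it. Of 12 pairs with the same number 2 had deviations correlated over 0.1 (range -0.56 to 0.14). The lowest was that of Hand2 replicates 3 and 5, in the same group, where taking off the group mean pushes r down. Of 15 libraries 1 was most like one of its own number. A fit with that number as a replicate block, chosen after seeing the data, called 0 genes for the vector and 282 for sex, with 7 residual degrees of freedom. In it the vector effect was 0.095 for Mirg, -0.34 for Cdkn1c, -0.099 for Plagl1 and -0.063 for Ndn. Low counts limit Mirg, Dlk1 and Plagl1, and 3 Hand2 males limit the comparison of vectors in males.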
